A study of Mus musculus with 9 samples.

Results

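Brain endothelial cells (BECs), the cells that line the blood vessels of the brain, were picked out of single-nucleus libraries by their transcripts. A nucleus counted as endothelial when it held at least 2 unique molecular identifiers (UMIs, each standing for 1 counted RNA molecule) of Flt1. It also had to hold a UMI of at least 3 of the 9 genes Pecam1, Cldn5, Mecom, Abcb1a, Slco1a4, Adgrl4, Ptprb, Cdh5 and Tek. No UMI of Slc17a7, Gad1, Mog, Atp13a5 or Csf1r was allowed, genes that mark excitatory neurons, inhibitory neurons, oligodendrocytes, pericytes and microglia in that order. In all, 530 of the 74895 nuclei within the limits of 200 to 5000 genes and at most 10% mitochondrial UMIs were endothelial, a share of 0.708%. These nuclei held 602 to 10285 UMIs (median 1902) over 492 to 3854 genes, with 2 to 87 UMIs of Flt1 (median 9) and 3 to 9 of the panel genes (median 6). Just inside the rule, 31 nuclei held exactly 2 Flt1 UMIs and 28 held exactly 3 panel genes. Just outside it, 24 nuclei had 1 Flt1 UMI with enough panel genes and 14 had enough Flt1 but only 2 panel genes. A further 235 nuclei met the Flt1 and panel limits but carried a UMI of an excluding gene. The levels of the 15 genes named here chose the nuclei, and they were left out of every test.

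The nuclei came from pooled cortex and hippocampus of 9 male wild-type C57BL/6 mice, with 1 library per mouse and 3 mice per group. All mice had received the same dose of an adeno-associated virus (AAV), through a vein behind the eye 8 weeks before the tissue was collected. The capsid of the virus targets brain vessels and its promoter is active in endothelial cells. In young AAV-EGFP and aged AAV-EGFP mice the virus carried EGFP, a fluorescent protein used as the control, and in aged AAV-B3GNT3 mice it carried B3GNT3, an enzyme that lengthens mucin-type O-glycans. Nuclei were sorted as singlets on a DNA dye, with no selection for virus, and which nuclei had taken up virus was not known. Aged AAV-EGFP against young AAV-EGFP gives the change with age among control-virus mice, and aged AAV-B3GNT3 against aged AAV-EGFP gives the change with the enzyme. There was no young group with B3GNT3. Both comparisons use the same aged AAV-EGFP libraries, so that a library of that group that stands high or low moves both, in opposite directions.

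Endothelial cells of the brain form the blood-brain barrier: tight junctions seal the gaps between them, few vesicles cross them, and transporters carry glucose and amino acids in and many drugs out. Their surface towards the blood carries a layer of glycoproteins and proteoglycans, the glycocalyx, of which the O-glycosylated mucin-domain proteins are a part. A nuclear RNA library samples RNA as it leaves the gene, including unspliced RNA of long genes, and holds only a part of the spliced RNA of a cell.

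Genes that the rule did not use went with the label. Egfl7, a vascular matrix protein, had a UMI in 49.2% of the endothelial nuclei, in 0.744% of pericyte nuclei (672 nuclei chosen by Atp13a5 and other pericyte genes) and in 1.04% of all other nuclei. The glucose transporter Slc2a1 had one in 74.3%, 3.12% and 5.47% of the same 3 classes, and the TGF-beta co-receptor Eng in 61.7%, 14.4% and 1.31%. The transcription factor Erg (36.4% of endothelial nuclei), the VEGF receptor Kdr (25.1%), the angiopoietin co-receptor Tie1 (20.4%) and the nitric oxide synthase Nos3 (38.7%) were each in under 1% of pericytes and of other nuclei. The classes with the lower shares were the deeper ones: endothelial nuclei had a median of 1902 UMIs, pericytes 2129, and other nuclei 3263 to 5644 by library. By the ratio of summed levels, the genes outside the rule that stood highest over the other nuclei were 4930578C19Rik, Zfp366, Ctla2a, Cyyr1 and Ly6c1, at 606 to 314 times, among genes with at least 200 UMIs in endothelial nuclei.

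Markers of other classes were low. Of 10 pericyte markers, 9 had a UMI in 0 to 2.45% of endothelial nuclei, with Kcnj8 at 0, against 6.85 to 78.3% of pericytes. Rgs5, a regulator of G-protein signalling listed among the pericyte markers, was the exception, at 34.5% of endothelial nuclei, 55.1% of pericytes and 2.07% of the rest. All 10 were among the genes that chose the pericyte nuclei, so their shares in pericytes follow in part from that choice. Smooth muscle Acta2 (1.32%), fibroblast Col1a1 (0.755%), astrocyte Aqp4 (2.26%) and microglial P2ry12 (1.89%) were rare, and Ptprc and Lyve1 had no UMI. Abundant neuronal RNA was not rare: Snap25 had a UMI in 45.5% of endothelial nuclei, close to the 47.6% of pericytes, another class that should lack it, and below the 70.4% of all other nuclei. Whether this share is background or expression was not tested. The plot of marker detection shows the endothelial genes on the left and the markers of other classes on the right.

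**Figure D1:**
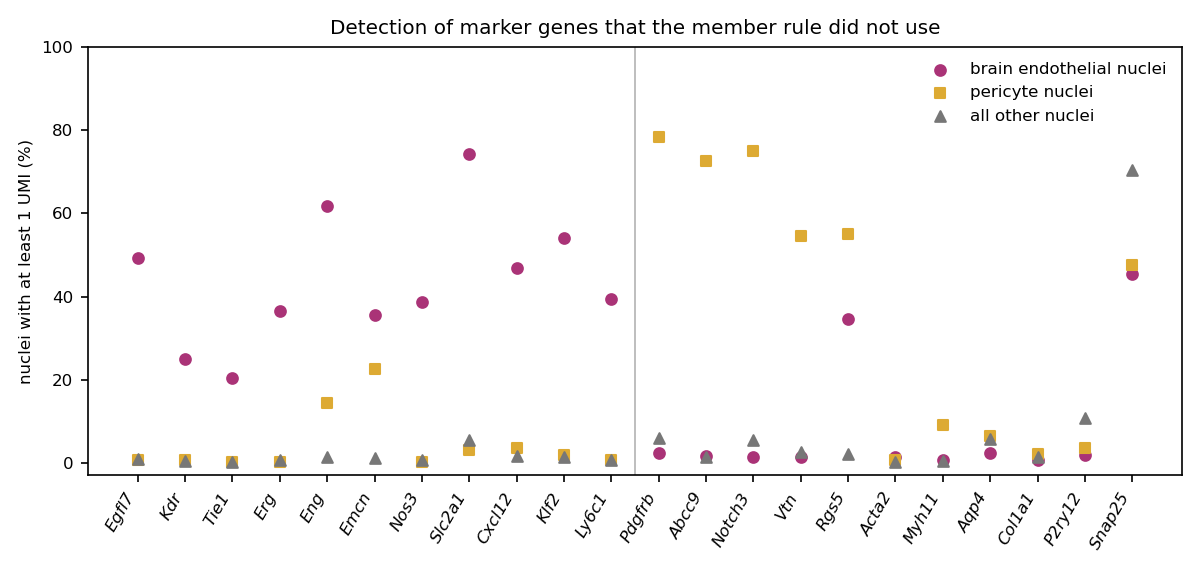
Share of nuclei with at least 1 UMI (%) for marker genes that the endothelial rule did not use, in endothelial nuclei (circles), pericyte nuclei (squares) and all other nuclei (triangles). The pericyte genes shown were among those that chose the pericyte nuclei. The endothelial genes left of the line are in 20.4 to 74.3% of endothelial nuclei, and right of it only Rgs5 and the neuronal gene Snap25 exceed 2.45% there.

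The libraries held 47332047 to 79964605 UMIs, and the endothelial nuclei of a library summed to 78002 to 201869. Of 77081 distinct barcodes, 734 occurred in more than 1 library, none of them as an endothelial nucleus in both, and 6 barcodes of endothelial nuclei were also in another library. The summed counts of 2 libraries of a group differed over genes with a chi-square, divided by its degrees of freedom, between 1.7 and 2.25, except that aged AAV-EGFP replicate 1 differed from its mates by 3.99 and 4.24, so that no library repeated another and this one stood apart. It had 35 endothelial nuclei, the fewest, and the counts of calls, and the log2 fold changes of several genes whose sign or call turned on it, are given with and without it. A simulated-doublet score marked 16 of the 530 nuclei.

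The endothelial share of nuclei did not pass a test of difference among the groups. It was 0.866, 0.790 and 0.616% in young AAV-EGFP replicates 1, 2 and 3, 0.487, 0.499 and 0.893% in aged AAV-EGFP, and 0.778, 0.859 and 0.528% in aged AAV-B3GNT3. The 3 ranges overlapped, and the group means were 0.757 ± 0.128%, 0.626 ± 0.231% and 0.721 ± 0.173% (SD, n = 3). The F statistic had an exact permutation p = 0.6 (two-sided, 1680 assignments), and the pairs gave exact permutation p of 0.4 to 0.7, where 3 samples against 3 cannot reach below 0.1. With 35 to 86 endothelial nuclei per library, the exact binomial 95% interval of a single share was wide, for example 0.340 to 0.677% in aged AAV-EGFP replicate 1. There were 0.552 to 0.907 endothelial nuclei per pericyte nucleus in young AAV-EGFP, 0.833 to 1.20 in aged AAV-EGFP and 0.608 to 0.8 in aged AAV-B3GNT3.

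Along the vessel, endothelial cells of arteries, capillaries and veins differ in their genes. An endothelial nucleus was counted to the arterial list when it held at least 2 UMIs over the 16 arterial genes and more of these than of the 16 venous ones, and to the venous list by the reverse. The arterial-list share was 59.5, 51.3 and 48.6% in young AAV-EGFP replicates 1, 2 and 3, 42.9, 40 and 52.1% in aged AAV-EGFP, and 39.6, 43.0 and 59.1% in aged AAV-B3GNT3. The groups overlapped (exact permutation test of F, p = 0.407). The venous-list share was 26.6, 28.2 and 32.4%, then 48.6, 30 and 37.0%, then 43.8, 31.4 and 27.3% in the same order. Here too the groups overlapped (exact permutation p = 0.4), and aged AAV-EGFP replicate 1 was the highest. The arterial count rests mostly on 1 gene, since Arl15, at 3.09 times its level in the other nuclei, gave 70.2% of the UMIs over that list, while defining arterial genes such as Gja5 (3 UMIs) and Bmx (53 UMIs) were scarce. Without Arl15, a choice made after this was seen, the mean arterial-list shares were 14.6 ± 7.08, 22.3 ± 3.94 and 12.9 ± 4.16% (SD, n = 3), so that aged AAV-EGFP stood highest instead of lowest (exact permutation test of F, p = 0.136). Tshz2 gave 33.3% of the venous UMIs. In 8.57 to 30% of endothelial nuclei by library neither list led.

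**Figure D2:**
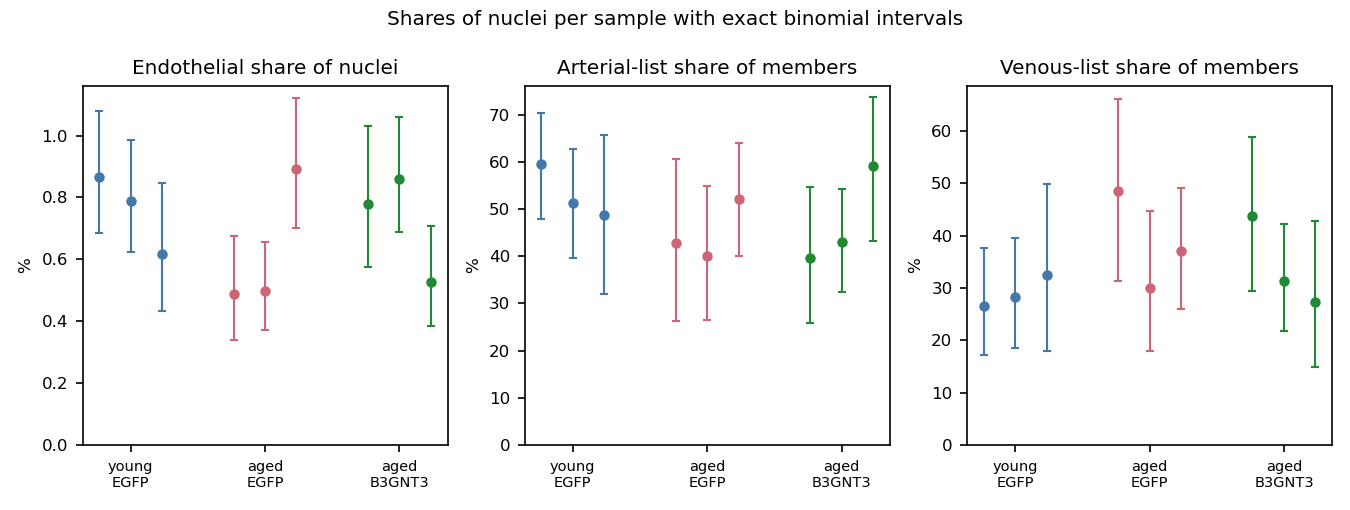
Per library, the endothelial share of all nuclei and the shares of endothelial nuclei counted to the arterial and the venous list (%), with exact binomial 95% intervals that cover counting error only. The endothelial share runs from 0.487 to 0.893% in aged AAV-EGFP alone, as wide as over all 9 libraries, and no panel separates the groups.

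The virus was meant to raise B3GNT3 in these cells. B3gnt3 (chr8:71690756-71701789 in GRCm38, minus strand) had 6, 2 and 0 UMIs in the endothelial nuclei of young AAV-EGFP replicates 1, 2 and 3, 0, 0 and 0 in aged AAV-EGFP, and 0, 1 and 2 in aged AAV-B3GNT3. In CPM, the usual scaling of UMIs to an equal total per library, this is 29.7, 11.9 and 0, then 0 in each, then 0, 5.42 and 18.01. The summed aged AAV-EGFP nuclei had no UMI in 329773, which allows a level of up to 9.10 CPM (3 counts). With so few counts no fold is given, and a difference between the aged groups was not detectable at this depth (means of 7.81 and 0 CPM, two-sided exact permutation test, p = 0.4). Nor was one between aged AAV-EGFP and young AAV-EGFP (mean of 13.9 CPM, exact permutation p = 0.4), where replicate 1 held most of the UMIs. The other nuclei held B3gnt3 at 0.0778 to 0.247 CPM, and all barcodes of a library had 5 to 17 UMIs. It was not known whether viral transcripts enter the counts of this gene. C1galt1, which makes the core 1 O-glycan that B3GNT3 extends, was too low for the test over genes, at 41.1 to 100.1 CPM in young AAV-EGFP, 26.6 to 66.6 in aged AAV-EGFP and 42.1 to 62.4 in aged AAV-B3GNT3.

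With age, 76 of the 3260 genes tested in endothelial nuclei passed an adjusted p of 0.05 in edgeR's quasi-likelihood test (2.33%), 57 higher (1.75%) and 19 lower (0.583%) in aged AAV-EGFP than in young AAV-EGFP. Of the 57 that rose, 40 had a span of at most 10 kb from start to end and all stood higher in endothelial than in other nuclei, among them the actin Actg1, basigin (Bsg), endothelin 1 (Edn1) and the MHC class I gene H2-K1. The 19 that fell had spans of 75.4 to 2271 kb, beside a median of 79.6 kb over all genes tested, and endothelial nuclei held all 19 at a lower level than the other nuclei. With AAV-B3GNT3, 31 genes passed (0.951%), 29 of them lower than in aged AAV-EGFP (0.89%), 21 of these with a span of at most 10 kb, and 2 higher (0.0613%), Hpcal1 and Fnip2. Between aged AAV-B3GNT3 and young AAV-EGFP no gene passed in edgeR or in DESeq2. At an unadjusted p under 0.05 there were 208 genes in edgeR (6.38%) and 170 in DESeq2. Groups did not overlap in 17.8%, 14.8% and 14.4% of the genes tested in the 3 comparisons, in that order.

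These counts depended on the libraries in the fit. With only the 2 groups compared in the edgeR fit, 0 genes passed with age (2824 tested, 414 at an unadjusted p under 0.05) and 0 with AAV-B3GNT3 (2727 tested, 293 at an unadjusted p under 0.05). The 76 genes with age became 0 when young AAV-EGFP replicate 1 or 2 or aged AAV-EGFP replicate 3 was left out, and 21 without replicate 3 of the young group. They became 379 without aged AAV-EGFP replicate 1, the library that stood apart, 42 without replicate 2 of that group, and 33, 50 and 49 without aged AAV-B3GNT3 replicates 1, 2 and 3. The 31 genes with AAV-B3GNT3 became 0 without aged AAV-EGFP replicate 2 or any 1 of the 3 aged AAV-B3GNT3 libraries, 8 without aged AAV-EGFP replicate 3, 19, 18 and 16 without young AAV-EGFP replicates 1, 2 and 3, and 189 without aged AAV-EGFP replicate 1. Every call named in the text is to be read with this: each was lost in at least 1 of these fits, and the log2 fold changes of the named genes that passed kept their sign in all of them. Fold changes are log2 values with their SE, levels are CPM scaled by the trimmed mean of M values, and adjusted p-values are edgeR's, over all genes tested.

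The actins are the filaments of the cell cortex and of stress fibres, and the 2 cytoplasmic ones passed in both comparisons. Actg1 (chr11:120345690-120348542, minus strand), gamma-actin, stood at 101, 147 and 122 CPM in young AAV-EGFP replicates 1, 2 and 3, at 311, 1176 and 1038 in aged AAV-EGFP and at 117, 253 and 206 in aged AAV-B3GNT3. Every aged AAV-EGFP library lay above the other 6, with replicate 1 well below its mates. Actg1 rose with age by 2.77 ± 0.44 on the log2 scale (adjusted p = 0.0164) and fell with AAV-B3GNT3 (log2 fold change -2.11 ± 0.42, adjusted p = 0.0313). Beta-actin, Actb, stood at 429.6, 469.8 and 445 CPM in young AAV-EGFP, at 1209, 1134 and 1205 in aged AAV-EGFP and at 468, 463 and 472 in aged AAV-B3GNT3. Its 3 groups were each narrow and aged AAV-EGFP stood alone, with a log2 fold change of 1.4 ± 0.24 with age (adjusted p = 0.0177) and of -1.34 ± 0.24 under AAV-B3GNT3 (adjusted p = 0.0199). Actb, like Bsg, Ly6c1, Ly6a, Hspb1, Pglyrp1 and Rgs5 in the paragraphs that follow, was named after its values were seen. Both actins have processed copies elsewhere in the genome, which can take or give reads.

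Tmsb4x (chrX:167207093-167209315, minus strand) encodes thymosin beta 4, which holds actin in its free form. It stood at 222, 276 and 111 CPM in young AAV-EGFP, at 666, 532 and 779 in aged AAV-EGFP and at 148, 189.6 and 111 in aged AAV-B3GNT3. The aged AAV-EGFP libraries did not overlap the others, and Tmsb4x rose by 1.66 ± 0.32 with age (adjusted p = 0.0184) and fell with AAV-B3GNT3 (log2 fold change -2.12 ± 0.33, adjusted p = 0.0188). Vcl (chr14:20929398-21033676, plus strand), vinculin, which ties actin to cell adhesions, stood at 299, 411 and 534 CPM, then 244, 1176 and 592, then 156, 153 and 146. It fell with AAV-B3GNT3 (log2 fold change -2.12 ± 0.45, adjusted p = 0.0394), where all 3 treated libraries lay below the other 6. Its change with age did not pass (0.69 ± 0.41, adjusted p = 0.42), and the groups overlapped. The myosin light chain Myl12a fell with AAV-B3GNT3 (log2 fold change -2.27 ± 0.47), the small GTPase Rhoc rose with age (2.3 ± 0.47), and the chloride channel protein Clic1 rose with age (2.08 ± 0.46).

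The CArG box is known as the site that serum response factor binds in front of actin and other cytoskeletal genes. The letters before the start of 2 genes in which a search found it are therefore shown. A search on both strands of the 250 bases before the RefSeq start found a CArG box in 1.81% of 27025 promoters, in 48 of the 2559 tested genes with a promoter (1.88%), and in 2 of the 50 with a promoter among the 66 genes that were higher in aged AAV-EGFP in either comparison. Those 2 were Actg1 and Vcl. Genes of the 66 without a promoter in the search were not examined, and no result is given for Actb. The stretches are from RefSeq, build GRCm38.p6, written on the strand of the gene, with the box in capitals, 90 to 81 bases before the start in Actg1 and 227 to 218 in Vcl.
Actg1, chr11:120348531-120348630, minus strand: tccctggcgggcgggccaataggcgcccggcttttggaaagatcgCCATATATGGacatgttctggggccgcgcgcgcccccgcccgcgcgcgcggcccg
Vcl, chr14:20929148-20929225, plus strand: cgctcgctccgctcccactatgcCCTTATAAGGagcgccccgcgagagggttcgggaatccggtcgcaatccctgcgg
These are matches of letters, and no measurement here shows a factor on them.

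Several genes that rose with age are known as products of endothelium. Ctla2a (chr13:60934155-60936625, minus strand), a cathepsin inhibitor, stood at 48.3, 82.2 and 122 CPM in young AAV-EGFP, at 233, 1134 and 779 in aged AAV-EGFP and at 226, 147 and 231 in aged AAV-B3GNT3. The 3 groups did not overlap, with young AAV-EGFP lowest, and the rise with age was 3.16 ± 0.50 (adjusted p = 0.0164). With AAV-B3GNT3 the log2 fold change was -1.83 ± 0.45, which did not pass (adjusted p = 0.0668). Edn1 (chr13:42301476-42307990, plus strand) encodes endothelin-1, the vasoconstrictor peptide that endothelium releases. It stood at 53.1, 29.4 and 55.6 CPM, then 178, 378 and 159.7, then 172, 169 and 111, so that all 6 aged libraries lay above the 3 young ones and the aged groups overlapped. Edn1 rose with age by 2.32 ± 0.43 (adjusted p = 0.0184), while the differences of aged AAV-B3GNT3 from aged AAV-EGFP (-0.59 ± 0.37, adjusted p = 0.572) and from young AAV-EGFP (1.73 ± 0.43, adjusted p = 0.654) did not pass. Ucp2, a carrier of the inner mitochondrial membrane, had the same shape, at 29, 11.7 and 11.1 CPM, then 66.6, 140.0 and 233, then 93.6, 89.5 and 111. Its rise with age was 2.96 ± 0.54 (adjusted p = 0.0184), and aged AAV-B3GNT3 did not overlap young AAV-EGFP (2.31 ± 0.56, adjusted p = 0.654).

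Akap12 (chr10:4266380-4359470, plus strand), a scaffold for protein kinases, stood at 111, 147 and 55.6 CPM in young AAV-EGFP, at 166, 1666 and 732 in aged AAV-EGFP and at 312, 232 and 206 in aged AAV-B3GNT3. Aged AAV-EGFP replicate 1 was close to the young libraries and replicate 2 far above them. Akap12 rose with age by 2.93 ± 0.59 (adjusted p = 0.0218), and at 93.1 kb it is among the few genes of over 30 kb that did. The glycosyltransferase Mgat4a, which branches N-glycans, was another (102 kb, 2.49 ± 0.61, adjusted p = 0.0443). Its levels were 38.6, 64.6 and 11.1 CPM in the young group and 66.6, 448 and 226 in aged AAV-EGFP, with replicate 1 again next to the young ones.

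Bsg (chr10:79704491-79711969, plus strand), basigin, a membrane glycoprotein that escorts monocarboxylate transporters and is abundant on brain endothelium, stood at 806, 828 and 456 CPM in young AAV-EGFP, at 3795, 1638 and 2049.7 in aged AAV-EGFP and at 608, 674 and 986 in aged AAV-B3GNT3. The lowest aged AAV-EGFP library was above the highest of the other 6, and here replicate 1 was the highest. Bsg rose by 1.82 ± 0.35 with age (adjusted p = 0.0184, and by 1.34 without that library) and fell with AAV-B3GNT3 (log2 fold change -1.72 ± 0.35, adjusted p = 0.0313). Ly6c1 and Ly6a, a pair of related glycosylphosphatidylinositol-anchored proteins whose reads may be shared, rose with age by 1.83 ± 0.33 and 1.89 ± 0.35, and their changes with AAV-B3GNT3 did not pass (-1.23 ± 0.32 and -1.01 ± 0.33, adjusted p = 0.0792 and 0.179). The peptidoglycan receptor Pglyrp1 rose with age by 2.05 ± 0.38, with 66.7 to 199.7 CPM in young AAV-EGFP, 333 to 652 in aged AAV-EGFP and 189 to 300.2 in aged AAV-B3GNT3. Hspb1, a small heat shock protein, stood at 72.4, 64.6 and 100.1 CPM, then 266, 308 and 299, then 62.4, 73.7 and 85.7. Each group was narrow, and Hspb1 passed in both comparisons (1.92 ± 0.31, adjusted p = 0.0164, and -1.97 ± 0.31, adjusted p = 0.0188).

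Ribosomal proteins and other short housekeeping genes were also among the calls. Fau, which is processed to a ribosomal protein, rose with age by 2.54 ± 0.49, with 14.5 to 77.8 CPM in young AAV-EGFP and 140.0 to 322 in aged AAV-EGFP. The glycolytic enzyme Aldoa rose by 2.07 ± 0.45, with 22.2 to 48.3 and 119.8 to 266 CPM. Among the falls with AAV-B3GNT3 were the ribosomal proteins Rpl41 (-2.24 ± 0.43) and Rpl27a (-2.17 ± 0.41), polyubiquitin Ubb (-2.19 ± 0.37), the cytochrome oxidase subunit Cox4i1 (-2.05 ± 0.45) and the uncharacterised gene 9630028H03Rik (-2.04 ± 0.38). Ubb, for example, stood at 101, 170.3 and 122 CPM in young AAV-EGFP, at 333, 504 and 266 in aged AAV-EGFP and at 85.8, 52.7 and 103 in aged AAV-B3GNT3. Reads of these genes may be shared with processed copies.

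Dusp1 (chr17:26505590-26562128, minus strand), a phosphatase that is induced quickly by stress and growth factors, had the largest fall with AAV-B3GNT3 among the genes named here. It stood at 111, 58.7 and 133 CPM in young AAV-EGFP, at 55.5, 1358 and 299 in aged AAV-EGFP and at 31.2, 52.7 and 34.3 in aged AAV-B3GNT3. The value of aged AAV-EGFP replicate 2 carried most of the difference, whereas replicate 1 lay just above the treated libraries. The log2 fold change with AAV-B3GNT3 was -3.71 ± 0.81 (adjusted p = 0.0415), and with age it was 2.47 ± 0.72, with overlapping groups (adjusted p = 0.0889).

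**Figure D3:**
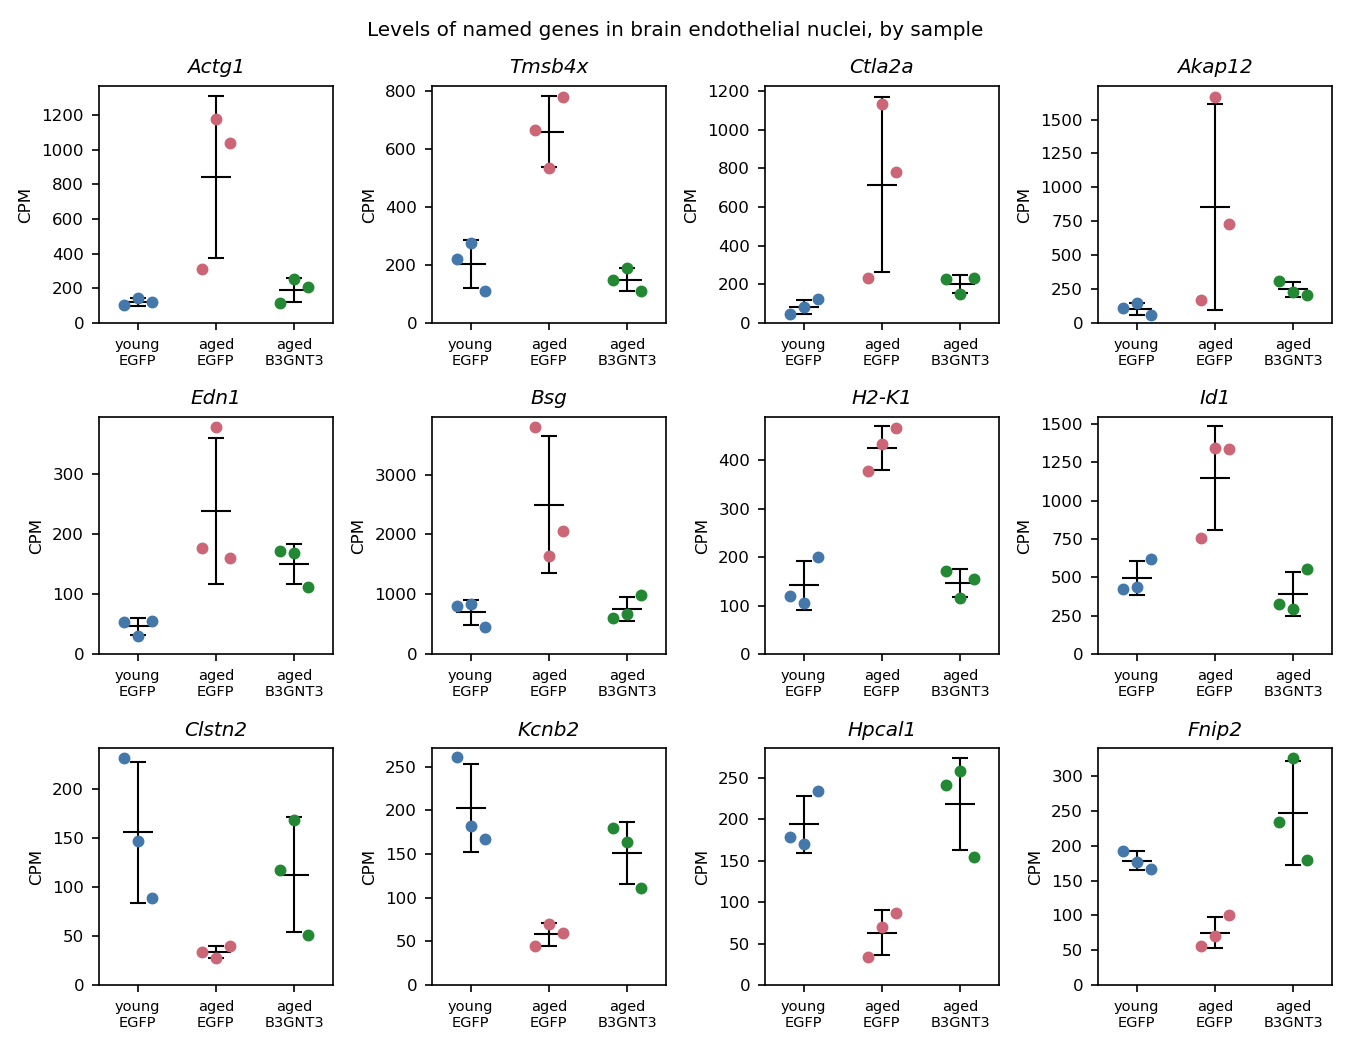
CPM of 12 genes in the summed endothelial nuclei of each library (points), with the mean ± SD of the 3 libraries of a group. Actg1 to Id1 lie highest in aged AAV-EGFP, Clstn2 to Fnip2 lowest, and in Actg1, Ctla2a and Akap12 aged AAV-EGFP replicate 1 lies below its mates.

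Clstn2 (chr9:97444395-98033181, minus strand), a synaptic adhesion protein, stood at 232, 147 and 88.9 CPM in young AAV-EGFP, at 33.3, 28 and 39.9 in aged AAV-EGFP and at 117, 169 and 51.4 in aged AAV-B3GNT3. Aged AAV-EGFP lay below the other 6 libraries, and the change with age was -2.2 ± 0.52 (adjusted p = 0.0418). Kcnb2 (chr1:15287254-15723750, plus strand), a potassium channel, stood at 261, 182 and 167 CPM, then 44.4, 70.02 and 59.9, then 179, 163 and 111, and aged AAV-EGFP alone was low (-1.83 ± 0.37, adjusted p = 0.0227). The other large falls were in the glutamate receptor subunit Grin2a (-1.52 ± 0.37), the phosphodiesterase Pde1a (-2.14 ± 0.47), the guidance receptor Epha5 (-1.88 ± 0.41), the transcription factor Tshz3 (-1.85 ± 0.38), the ubiquitin ligase March1 (-1.61 ± 0.36), the channel modulator Fgf12 (-1.56 ± 0.36) and Fam19a1 (-1.5 ± 0.36). Endothelial nuclei held each of these 9 genes at 0.154 to 0.651 times the level of the other nuclei. Beside them, the summed CPM of 12 neuron markers in endothelial nuclei was 5236 to 8633 in young AAV-EGFP, 3633 to 4198 in aged AAV-EGFP and 4394 to 5975 in aged AAV-B3GNT3. Grin2a is itself among these 12 markers. The share of endothelial UMIs estimated as free RNA was 25.6, 38.5 and 26.2% in young AAV-EGFP, 18.9, 14.6 and 16.2% in aged AAV-EGFP and 21.3, 30.2 and 19.6% in aged AAV-B3GNT3. This estimate is the share of UMIs that the same 12 markers had in endothelial nuclei, over their share in all barcodes of the library. It is thus not a separate measure from their summed CPM. With that estimate subtracted, 0 genes passed in any of the 3 comparisons in edgeR (289, 254 and 152 at an unadjusted p under 0.05). With endothelial nuclei high in RNA of other classes left out instead, 98 genes passed with age, 37 of them lower, and 44 passed with AAV-B3GNT3, 34 of them lower. Without the upper limit of 5000 genes per nucleus, 20 genes passed with age and 0 of them were lower. Each fall described here lost its call there, and 9 genes passed with AAV-B3GNT3. Lifting that limit let in only 2 nuclei, with a median of 21487.5 UMIs. Aged AAV-EGFP replicate 1 then had 36 endothelial nuclei in place of 35, and aged AAV-B3GNT3 replicate 2 had 87 in place of 86. The part of free RNA in the falls was not tested further.

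Both rises with AAV-B3GNT3 were in genes that were low in aged AAV-EGFP. Hpcal1 (chr12:17690856-17791933, plus strand), a calcium sensor, stood at 179, 170.3 and 233 CPM in young AAV-EGFP, at 33.3, 70.02 and 86.5 in aged AAV-EGFP and at 242, 258 and 154 in aged AAV-B3GNT3. Fnip2 (chr3:79455974-79567796, minus strand), a partner of folliculin in nutrient sensing, stood at 193, 176 and 167 CPM, then 55.5, 70.02 and 99.8, then 234, 327 and 180.0. In both, the treated and young libraries overlapped and aged AAV-EGFP lay below all of them. Hpcal1 rose by 1.73 ± 0.38 (adjusted p = 0.0415) and Fnip2 by 1.67 ± 0.35 (adjusted p = 0.0394), and their differences with age did not pass (-1.52 ± 0.39, adjusted p = 0.054, and -1.19 ± 0.36, adjusted p = 0.101). Unlike the genes that fell with age, Hpcal1 was 11.1 times higher in endothelial than in other nuclei. Next in order, Pde1a (2.04 ± 0.48), Dab1 (1.25 ± 0.29) and Lrrtm4 (1.35 ± 0.32) missed the threshold, each at an adjusted p of 0.0562 to 0.0563.

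The lists of genes that follow are to be read beside the shares called over all genes tested, 2.33% with age and 0.951% with AAV-B3GNT3: for lists of this size, 0 calls or 1 is near that background and says nothing particular to the list. Calls counted for a list are those of the fit with all 9 libraries, and further members passed without aged AAV-EGFP replicate 1. Of 26 junction genes, 16 were tested and none was called in any comparison, with a median log2 fold change of 0.20 with age and -0.15 with AAV-B3GNT3, beside 0.01 and -0.01 over all genes tested. The 4 with the highest levels, the scaffold Tjp1, the polarity protein Pard3, the adherens junction protein Afdn and Magi3, had log2 fold changes of -0.09, -0.36, 0.37 and -0.20 with age and 0.18, 0.65, -0.14 and -0.05 with AAV-B3GNT3. Claudin 5, VE-cadherin and PECAM-1 belong to the rule and were not tested. Of 37 transporters, 24 were tested and none was called (medians 0.19 and -0.15). The glucose transporter Slc2a1 stood at 531, 669 and 1045 CPM in young AAV-EGFP, at 632, 2157 and 2409 in aged AAV-EGFP and at 1084, 1106 and 1132 in aged AAV-B3GNT3. Aged AAV-EGFP replicates 2 and 3 were the highest of all 9 libraries while replicate 1 lay within the young range, and the difference with age did not pass (1.23 ± 0.40, adjusted p = 0.125), while without replicate 1 it was 1.59 ± 0.27 (edgeR adjusted p = 0.00131). The taurine transporter Slc6a6, the lipid flippase Atp10a and the efflux pump Abcc4 had log2 fold changes of 0.29, -0.32 and 0.15 with age. Slc6a6 was higher in all aged AAV-B3GNT3 libraries (2302 to 2709 CPM) than in any other, with 0.46 ± 0.27 against aged AAV-EGFP (adjusted p = 0.542) and 0.76 ± 0.27 against young AAV-EGFP (adjusted p = 0.761). Of 14 genes of caveolae and vesicle transport, 9 were tested and none was called (medians 0.16 and -0.09), Cav1 at 0.01 with age and the clathrin adaptor Picalm, the clathrin heavy chain Cltc and dynamin 2 (Dnm2) at 0.49, 0.53 and 0.01. Without aged AAV-EGFP replicate 1, Cav1 was at -0.59 and Dnm2 at -0.15, so both signs rest on that library.

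In the VEGF, angiopoietin and Notch list, 19 of 32 genes were tested and 1 rose with age (beside 2.33% of all genes tested), Robo4, a receptor that stabilises endothelium (91.7, 41.1 and 77.8 CPM in young AAV-EGFP, 178, 336 and 213 in aged AAV-EGFP and 109, 89.5 and 171 in aged AAV-B3GNT3). Its groups with age did not overlap (1.74 ± 0.40, adjusted p = 0.0359), and its difference with AAV-B3GNT3 did not pass (-0.97 ± 0.38, adjusted p = 0.282). The list's medians were 0.50 and -0.47, and Adgrf5, Maml2, S1pr1 and Egfl7, its highest members, had log2 fold changes of 0.50, -0.13, 0.51 and 0.47 with age. In the Wnt and barrier-development list, 19 of 29 were tested and none was called (medians 0.0020 and 0.07), with Lef1, Fermt2, Znrf3 and Fzd6 at -0.15, 0.12, -0.39 and 0.47 with age.

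The TGF-beta and BMP list had 22 of 33 genes tested. Id1 (chr2:152736251-152737410, plus strand) and Id3, inhibitors of differentiation that BMP signalling through SMAD proteins is known to induce, moved alike. Id1 stood at 425, 435 and 623 CPM in young AAV-EGFP, at 755, 1344 and 1338 in aged AAV-EGFP and at 328, 295 and 557 in aged AAV-B3GNT3, and Id3 at 76.3 to 121, 279.5 to 355 and 79 to 206 CPM. In both, aged AAV-EGFP overlapped neither other group. Id3 rose with age (1.68 ± 0.37, adjusted p = 0.0316) and Id1 fell with AAV-B3GNT3 (log2 fold change -1.55 ± 0.33, adjusted p = 0.0394), while Id1 with age (1.23 ± 0.32, adjusted p = 0.0616) and Id3 with AAV-B3GNT3 (-1.28 ± 0.36, adjusted p = 0.101) missed the threshold. The receptors Bmpr2 (0.18 with age) and Eng (0.72) and the TGF-beta binding protein Ltbp4 (0.87) did not pass, and the list's medians were 0.25 and -0.11.

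In the lists of vessel position, Tm4sf1, an arterial surface protein, was the only call. It stood at 130.3, 64.6 and 88.9 CPM in young AAV-EGFP, at 255, 280.1 and 286 in aged AAV-EGFP and at 85.8, 68.5 and 129 in aged AAV-B3GNT3. Aged AAV-EGFP was narrow and separate, and Tm4sf1 rose with age (1.5 ± 0.34, adjusted p = 0.0359) and fell with AAV-B3GNT3 (log2 fold change -1.57 ± 0.35, adjusted p = 0.0415). Only 5 of 16 arterial genes were tested, with medians of 0.87 and -0.78, among them Arl15 (-0.14 with age), Vegfc (0.65) and Stmn2 (1.04). Of 12 capillary genes 11 were tested (medians 0.24 and -0.41), and Cxcl12, Spock2, Slc7a5 and Rgcc had log2 fold changes of 1.2, -0.05, -0.29 and 1.05 with age. Of 16 venous genes 6 were tested (medians 0.53 and -0.43), and Tshz2, Il1r1, Osmr and Vwf had 0.04, -0.63, 0.57 and 1.1. Without aged AAV-EGFP replicate 1, Tshz2 was at -0.30.

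Among genes of adhesion and inflammation, 13 of 38 were tested and Edn1, described above, was the 1 call with age, with medians of 0.87 and -0.55. The chemokine Cxcl12 stood at 599, 458 and 500.3 CPM in young AAV-EGFP, at 1842, 854 and 905 in aged AAV-EGFP and at 374, 485 and 729 in aged AAV-B3GNT3. Its groups did not overlap in either comparison, and neither passed (1.2 ± 0.34, adjusted p = 0.076, and -1.18 ± 0.34, adjusted p = 0.108). The plasminogen activator Plat, the NF-kappaB inhibitor Nfkbia and Nos3 had log2 fold changes of 1.82, 0.99 and 0.87 with age and -1.77, -0.43 and -0.38 with AAV-B3GNT3, none past the threshold. Plat was at 111, 980.2 and 752 CPM in aged AAV-EGFP, with replicate 1 below every young library and replicates 2 and 3 far above. Without replicate 1 its change with age was 2.27 ± 0.29 (edgeR adjusted p = 8.75e-05). Nfkbia and Nos3 passed there too, at 1.14 ± 0.30 and 1.15 ± 0.31 with age (edgeR adjusted p = 0.0187 and 0.0239). The leukocyte adhesion molecules Vcam1 and Icam1 had UMIs in 4.72 and 4.34% of endothelial nuclei, and Selp in none.

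Of 48 MHC and interferon genes, 11 were tested. H2-K1 (chr17:33996017-34000347, minus strand), an MHC class I heavy chain, stood at 121, 106 and 200.1 CPM in young AAV-EGFP, at 377, 434 and 466 in aged AAV-EGFP and at 172, 116 and 154 in aged AAV-B3GNT3. Aged AAV-EGFP was separate from both other groups, and H2-K1 rose with age (1.65 ± 0.30, adjusted p = 0.0184) and fell with AAV-B3GNT3 (log2 fold change -1.55 ± 0.30, adjusted p = 0.0264). Its paralogue H2-D1, with which reads may be shared, had 1.17 ± 0.43 and -1.27 ± 0.44 (adjusted p = 0.173 and 0.209). The list as a whole had medians of -0.06 and -0.04, and the interferon genes Irf2 (-0.06 with age) and Rnf213 (-0.09) did not pass.

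With all 9 libraries in the fit, the 3 lists of glycocalyx genes held no called gene in any comparison, near the background of 2.33% with age and 0.951% with AAV-B3GNT3 over all genes tested. Of 40 genes of mucin-type O-glycan synthesis 14 were tested, with medians of -0.15 with age, 0.10 with AAV-B3GNT3 and -0.15 for aged AAV-B3GNT3 against young AAV-EGFP. St6galnac3, a sialyltransferase that caps O-glycans, stood at 2698, 1579.6 and 1879 CPM in young AAV-EGFP, at 1908, 1778 and 1418 in aged AAV-EGFP and at 897, 1048 and 1586 in aged AAV-B3GNT3. The groups overlapped, with 2 treated libraries the lowest of all (-0.53 ± 0.29, adjusted p = 0.514). Fut8, which is on the list but is known for adding fucose to N-glycans, St3gal6 and Gcnt2 had log2 fold changes of 0.25, -0.10 and 1.11 with age. Fut8 was at 869, 575 and 445 CPM in young AAV-EGFP and at 1653, 476 and 173 in aged AAV-EGFP, where replicate 1 alone was above the young libraries, and without it the change was -1.14 ± 0.40 (edgeR adjusted p = 0.0735), the opposite sign. In that fit, where 379 of 3972 genes passed with age, Gcnt2 (1.29 ± 0.31), St3gal1 (1.16 ± 0.31) and Chsy3 (-2.35 ± 0.46) passed too (edgeR adjusted p = 0.0122, 0.0228 and 0.00361). St3gal1 also passed with AAV-B3GNT3 there (-1.27 ± 0.31, edgeR adjusted p = 0.0215), as 189 genes did. Of 31 mucin-domain proteins 13 were tested, with medians of 0.50 and -0.53. The junction-associated mucin-like protein Heg1, Prom1, podocalyxin (Podxl) and endomucin (Emcn) had log2 fold changes of 0.46, 0.56, 0.69 and 0.50 with age and -0.18, -0.54, -0.13 and -0.81 with AAV-B3GNT3. Emcn was at 832, 224 and 213 CPM in aged AAV-EGFP, where replicate 1 alone was high. Without it, Emcn had -0.49 with age and 0.16 with AAV-B3GNT3, both of the opposite sign. Of 48 genes of heparan sulfate, chondroitin sulfate and hyaluronan 13 were tested (medians -0.19 and 0.10), and Ext1, Gpc5, Csgalnact1 and Chst11 had 0.24, -0.03, -0.72 and -0.20 with age. Gpc5 was at 705, 716 and 245 CPM in young AAV-EGFP and at 55.5, 1008 and 626 in aged AAV-EGFP, where replicate 1 was far below all others, and without it the value was 0.43 ± 0.47 (edgeR adjusted p = 0.605). Gpc5 is also on the list of astrocyte markers. In unscaled totals its group means in endothelial nuclei were 566, 524 and 653 CPM, beside 1040 in the other nuclei. The summed astrocyte list in endothelial nuclei was 488, 3192 and 1810 CPM in aged AAV-EGFP replicates 1, 2 and 3. The part of astrocyte RNA in the values of Gpc5 was not tested.

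Genes of the basement membrane and its receptors lay above 0 with age in 17 of the 17 tested (of 33 listed), with a median of 0.67, and below 0 with AAV-B3GNT3 in 16 of 17, with a median of -0.73. That all 17 lay above 0 with age rests on aged AAV-EGFP replicate 1. Without it, Lama4 (-1.35), Lama3 (-0.15), Lamc1 (-0.10) and Sparcl1 (-0.06) turned below 0 with age, while Adamts1, Adamts9 and Timp3 rose further, as given below. Col4a1 (1.38), Col4a2 (1.27), Lama5 (1.58) and Itgb1 (1.04) also rose further there. These passed (edgeR adjusted p = 0.00529, 0.0106, 0.0114 and 0.0165) in a fit where 379 of 3972 genes did. Lama4 also turned with AAV-B3GNT3, to 0.16. In the fit of all 9 libraries, 1662 of the 3260 genes tested lay above 0 with age and the medians were 0.01 and -0.01. Only the matrix protease Adamts1 passed, with age (2.24 ± 0.55, adjusted p = 0.0443), at 57.9, 52.9 and 66.7 CPM in young AAV-EGFP, 44.4, 392 and 386 in aged AAV-EGFP and 54.6, 47.4 and 77.2 in aged AAV-B3GNT3. Aged AAV-EGFP replicate 1 was the lowest of all 9 libraries, so the groups overlapped. The related protease Adamts9 had the same split, at 99.9, 2255 and 2389 CPM in aged AAV-EGFP against 164 to 511 in young AAV-EGFP (2.51 ± 0.71, adjusted p = 0.0802). Without replicate 1, Adamts1 was at 2.68 ± 0.34 and Adamts9 at 3.05 ± 0.35 (edgeR adjusted p = 9.21e-05 and 3.48e-05). The protease inhibitor Timp3 stood at 299.6, 1372 and 1125 CPM in aged AAV-EGFP against 333 to 422 in young (1.35 ± 0.41), fibronectin (Fn1) at 544 to 868 against 352 to 600.4 (0.67 ± 0.30) and integrin alpha 6 (Itga6) at 710.1 to 868 against 661 to 823 (0.11 ± 0.24), none of which passed. Without replicate 1, Timp3 was at 1.72 ± 0.26 (edgeR adjusted p = 0.000497).

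Of 53 endothelial transcription factors 38 were tested and none was called (medians 0.10 and -0.24), with Ebf1, Klf12 and Foxp1, among the highest, at 0.09, 0.45 and -0.03 with age and -0.52, -0.97 and -0.17 with AAV-B3GNT3. Without aged AAV-EGFP replicate 1, Ebf1 turned to -0.41 with age and Foxp1 to 0.03 with AAV-B3GNT3. In that fit, where 379 of 3972 genes passed with age, Klf2 (1.84), Klf3 (1.40), Klf4 (1.37), Klf6 (1.54), Klf7 (1.04) and Ets1 (-1.28) passed too. Klf2 had an edgeR adjusted p of 0.00131 with age there, and -2.69 ± 0.33 with AAV-B3GNT3 (edgeR adjusted p = 0.000136). Klf12 lay lower in all aged AAV-B3GNT3 libraries (797 to 1069 CPM) than in aged AAV-EGFP (1597 to 2008, adjusted p = 0.0912). In the list of glucocorticoid, clock and stress genes 20 of 41 were tested, with medians of 0.68 and -0.64. The metal-binding protein Mt1 rose with age (1.72 ± 0.42, adjusted p = 0.0443), with 22.2 to 62.8 CPM in young AAV-EGFP and 133 to 199.7 in aged AAV-EGFP. Several glucocorticoid-responsive genes split aged AAV-EGFP: Fkbp5 stood at 22.2, 434 and 546 CPM there, Zbtb16 at 55.5, 980.2 and 732 and Sgk1 at 111, 490.1 and 333. In each of the 3 genes replicate 1 was the lowest of its group, and none passed with age (1.65, -0.12 and 1.16). Without it they had 2.18, 0.37 and 1.5 with age (edgeR adjusted p = 0.00361, 0.543 and 0.00897), so that the sign of Zbtb16 turned. Fkbp5 was even across aged AAV-B3GNT3, at 398, 384 and 377 CPM, and ran from 48.3 to 256 in young AAV-EGFP. Hsp90ab1 had 0.57 ± 0.31 with age.

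Measures of RNA make-up moved with the groups in the same libraries. Summed over 101 genes, ribosomal protein RNA was 3167 to 4331 CPM in young AAV-EGFP, 6615 to 9838 in aged AAV-EGFP and 3448 to 4440 in aged AAV-B3GNT3, all of unscaled totals. In the other nuclei it was 1472 to 1535, 1635 to 2042 and 1540 to 1624, and in pericytes 1770 to 2329, 2671 to 3961 and 1851 to 2742. Mitochondrial RNA was 599 to 955 CPM in the endothelial nuclei of young AAV-EGFP, 1038 to 1493 in aged AAV-EGFP and 837 to 927 in aged AAV-B3GNT3. Malat1, a long RNA that stays in the nucleus, was also higher in aged AAV-EGFP, at 38827 to 43384 CPM. It was 34384 to 37788 in young AAV-EGFP and 30366 to 32866 in aged AAV-B3GNT3. Outside endothelial nuclei Malat1 was highest in aged AAV-EGFP as well. In the other nuclei it was 23499 to 30501 CPM in young AAV-EGFP, 33895 to 36487 in aged AAV-EGFP and 26051.5 to 27008 in aged AAV-B3GNT3. In pericytes it was 45179 to 50617, 59108 to 68115 and 42882 to 48137 in the same order. The median endothelial nucleus held 1782 to 2346, 1284 to 1974 and 1831 to 2284 UMIs in the 3 groups. The part of these shifts in the gene results was not tested.

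**Figure D4:**
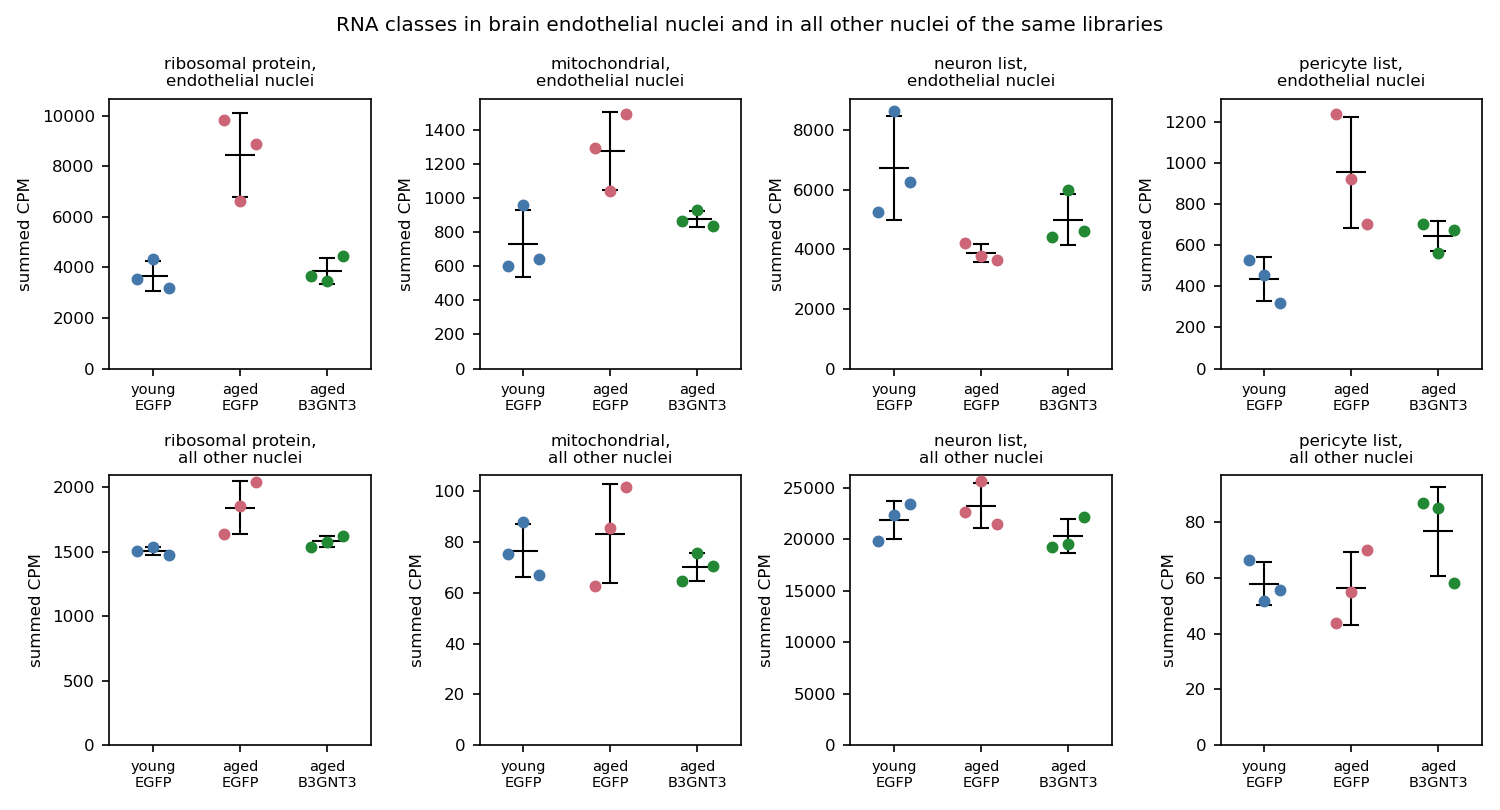
Summed CPM of 4 sets of genes per library, in endothelial nuclei (top) and in all other nuclei (bottom), with the mean ± SD of a group. Ribosomal protein RNA in endothelial nuclei is 6615 to 9838 CPM in aged AAV-EGFP against 3167 to 4440 in the other 6 libraries, and the neuron list is lowest and the pericyte list highest in aged AAV-EGFP.

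Gene span, the length from start to end with introns, ordered the fold changes. Genes of up to 10 kb had a median log2 fold change of 1.23 with age (175 genes, 167 above 0), those of 30 to 100 kb 0.06, and those over 300 kb -0.41 (409 genes, 98 above 0). With AAV-B3GNT3 the medians were -1.13, 0.02 and 0.11, and for aged AAV-B3GNT3 against young AAV-EGFP 0.06, 0.09 and -0.30. The 57 genes that rose with age had a median span of 4.81 kb, 40 of them at most 10 kb, the 19 that fell had 466 kb, and all tested genes had 79.6 kb. All 57 stood higher in endothelial than in other nuclei and all 19 lower, beside 2311 higher and 949 lower of all 3260. Fitted on genes of 30 kb or more alone, a choice made after this was seen, 0 of 2724 genes passed in each of the 3 comparisons with edgeR (357, 246 and 183 at an unadjusted p under 0.05). Over genes of up to 10 kb, without ribosomal protein genes, mitochondrial genes and Malat1, CPM of unscaled totals was summed. In endothelial nuclei it was 51847 to 57874 in young AAV-EGFP, 82456 to 87036 in aged AAV-EGFP and 56330.5 to 65495 in aged AAV-B3GNT3. In pericytes it was 40361 to 42387, 46775 to 62398 and 42623 to 51390 in that order. In the other nuclei it was 28333 to 31697.5, 29849 to 37628 and 32479.5 to 34404. Whether intronic reads were counted was not stated, and its part in the order by span was not tested.

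**Figure D5:**
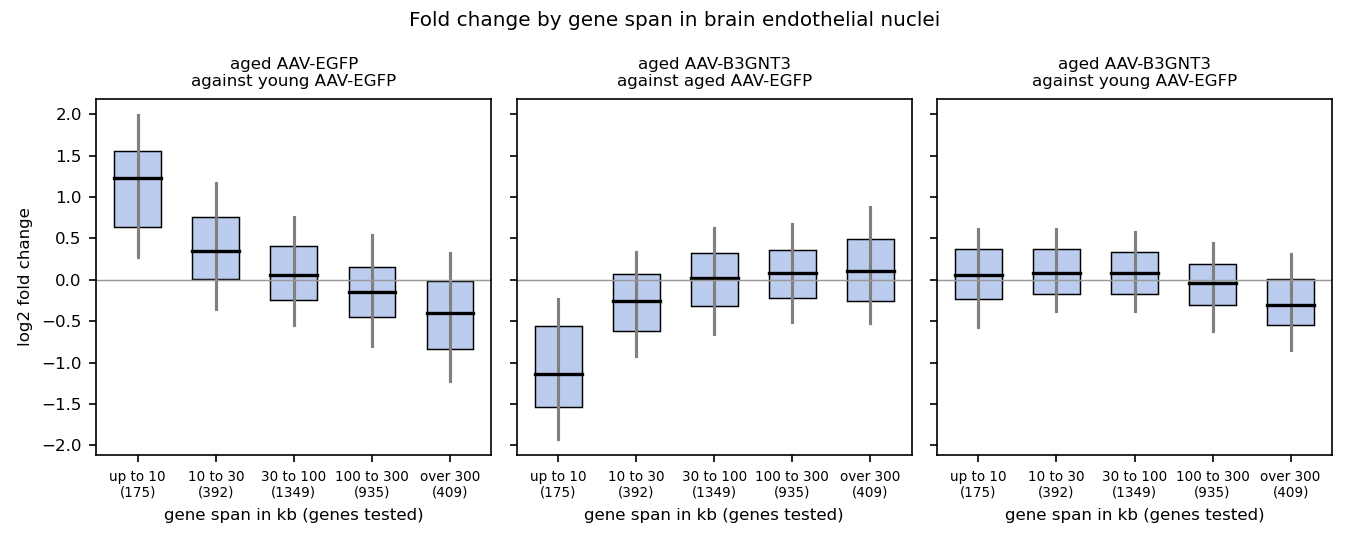
Log2 fold change of genes tested in endothelial nuclei by gene span in kb, for the 3 comparisons. The line is the median, the box the 25th to 75th percentile and the whisker the 10th to 90th, and the median falls from 1.23 to -0.41 from short to long genes with age, rises from -1.13 to 0.11 with AAV-B3GNT3, and runs from 0.06 to -0.30 for aged AAV-B3GNT3 against young AAV-EGFP.

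Setting each mouse's endothelial nuclei against all its other nuclei asks whether a change is larger here than in the rest of the library, free RNA included. The other nuclei include the 235 that met the Flt1 and panel limits but carried a UMI of an excluding gene. Their part in the changes of the rest was not tested. With age, the difference passed in limma for 46 of 2943 genes (1.56%), 16 upward (0.544%) and 30 downward (1.02%). Edn1 had a log2 change of 2.0 in endothelial nuclei and of -0.32 in the rest, a difference of 2.33 ± 0.36 (limma adjusted p = 0.0247). Fn1 had log2 changes of 0.67 and -1.28 (difference 1.94 ± 0.32, limma adjusted p = 0.0247), although its change in endothelial nuclei alone did not pass. Akap12, Ucp2, Rhoc, Id3 and Actg1 also differed, by 2.35 ± 0.55, 2.13 ± 0.47, 2.05 ± 0.42, 2.01 ± 0.44 and 1.55 ± 0.36. In the other direction Kcnb2 had a log2 change of -1.55 in endothelial nuclei and of -0.05 in the rest (difference -1.5 ± 0.32, limma adjusted p = 0.039). Ctla2a had a log2 change of 1.64 in the rest as well, and its difference did not pass (1.07 ± 0.28, limma adjusted p = 0.0794). Its mean level, in CPM of unscaled totals, was 321 in endothelial nuclei, 0.762 in the other nuclei and 0 in pericytes. Which of the other nuclei gave its change there was not tested. With AAV-B3GNT3 0 genes passed in limma, 420 were under an unadjusted p of 0.05 (14.3%), and the smallest adjusted p was that of Pde1a (2.26 ± 0.36, adjusted p = 0.0536). These counts moved between 0 and 323 with age and between 0 and 227 with AAV-B3GNT3 when single libraries were left out, both highest without aged AAV-EGFP replicate 1. With age they were 0 without young AAV-EGFP replicate 1 or 2, 2 without replicate 3, 13 and 8 without aged AAV-EGFP replicates 2 and 3, and 17, 7 and 14 without aged AAV-B3GNT3 replicates 1, 2 and 3. With AAV-B3GNT3 they were 12 without aged AAV-B3GNT3 replicate 3, and 0 or 1 without any library other than these.

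Against pericytes, the mural cells that share the vessel wall, 3 of 2542 genes differed in their change with age (0.118%), with 186 at an unadjusted p under 0.05 (7.32%). They were Palmd, Eml1 and Rgs5, the first pair named after their values were seen. Rgs5 in endothelial nuclei stood at 497, 399 and 289 CPM in young AAV-EGFP, at 1243, 868 and 705 in aged AAV-EGFP and at 632, 495 and 600.2 in aged AAV-B3GNT3. The aged AAV-EGFP libraries were above all others, and Rgs5 rose with age by 1.22 ± 0.30 (adjusted p = 0.0443). In pericytes its log2 change was -0.75, so that the difference was 2.0 ± 0.33 (limma adjusted p = 0.0262). Rgs5 was among the genes that chose the pericyte nuclei. Its level there, and this difference, therefore depend in part on that choice. The summed list of 10 pericyte markers in endothelial nuclei, in CPM of unscaled totals where the levels of Rgs5 above are scaled, was 321 to 530 CPM in young AAV-EGFP, 705 to 1240 in aged AAV-EGFP and 564 to 703 in aged AAV-B3GNT3. Rgs5 held 722 UMIs of that list over all libraries and the other 9 markers 0 to 13 each, with Kcnj8 at 0. On the same unscaled scale, Vtn (9 UMIs) had group means of 0, 25.6 and 4.50 CPM in the order used above, Abcc9 (11 UMIs) had 7.45, 24.2 and 6.0, and Pdgfrb (13 UMIs) had 11.1, 2.12 and 14.7. The part of pericyte RNA in the change of Rgs5 was not tested. Palmd, at 386, 352 and 378 CPM in young AAV-EGFP, 533, 700.2 and 679 in aged AAV-EGFP and 484, 342 and 317 in aged AAV-B3GNT3, had a log2 change with age of 0.78 in endothelial nuclei and of -1.34 in pericytes (difference 2.12 ± 0.29, limma adjusted p = 0.0113). With AAV-B3GNT3 Palmd was the 1 gene of 2542 that passed (0.0393%, with 7.51% at an unadjusted p under 0.05), with a difference of -2.01 ± 0.29 (limma adjusted p = 0.0205). For Eml1 the change with age was 1.34 in endothelial nuclei and -1.02 in pericytes (difference 2.36 ± 0.35, limma adjusted p = 0.0125). No change of Palmd or Eml1 within endothelial nuclei alone passed. These counts were 0 to 24 and 0 to 12 with single libraries left out, with 24 and 12 without aged AAV-EGFP replicate 1. With age, 0 genes differed without young AAV-EGFP replicate 1, 2 or 3 and 1 without aged AAV-EGFP replicate 3. With AAV-B3GNT3, 2 genes differed without aged AAV-EGFP replicate 3, and 0 when replicate 2 of that group was left out or any 1 of the young AAV-EGFP or aged AAV-B3GNT3 libraries.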

How the data were processed

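Nuclei of 9 libraries, 1 per mouse, were profiled by droplet single-nucleus RNA sequencing. The deposited matrices hold UMI counts per gene and nucleus that the authors made with Cell Ranger on mm10, version 4.0.0 by the submitters' processing notes and 7.2.0 by the matrix headers. Whether intronic reads were counted was not given in the sources used here.

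Groups came from the labels. Nuclei with under 200 or over 5000 genes, or over 10% mitochondrial UMIs, were dropped, endothelial nuclei were chosen by the rule stated in the report, and their counts were summed per library (78002 to 201869 UMIs). The members and gene lists were chosen with earlier results of these data known. Sums were tested with edgeR 4.0.16 in R 4.3.3 (quasi-likelihood test, all 9 libraries in 1 fit, filterByExpr with a minimum count of 10, TMM scaling, Benjamini-Hochberg adjustment, threshold 0.05), with the 15 rule genes left out. Changes in endothelial nuclei were set against those in the other nuclei, or in pericytes, of the same mice with limma 3.58.1 on differences of log2 CPM (prior count 2, mean of at least 10 UMIs). Shares and B3gnt3 were compared with exact permutation tests in scipy 1.17.1. Intervals are exact (Clopper-Pearson, 95%), and a count of 0 allows up to 3 counts; both cover counting error only. P-values measure the spread between 3 mice per group. The tests were also run on simulated data, in which a gene had the same spread in every library and no library stood apart. The other nuclei were drawn there independently of the endothelial ones. That check therefore does not cover a library that stands apart, as aged AAV-EGFP replicate 1 did.

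Named genes were, for each of the ageing and AAV-B3GNT3 comparisons, the 10 largest rises and falls among genes that passed, with a mean of at least 10 UMIs per sample and groups that did not overlap, filled up to 5 where fewer passed. Every called member of the 17 lists, the 4 members of each with the highest levels, B3gnt3 and C1galt1 were added; some genes that the rule takes are not reported here. Alternatives were DESeq2 1.42.0, RLE scaling, no filter, 2-group fits, the replicate number as a block, single libraries left out, other limits on nuclei and, added after the data were seen, spans of 30 kb or more, removal of nuclei high in RNA of other classes and subtraction of estimated free RNA. Gene positions are from GENCODE M21 (GRCm38), matched for 31011 of 31053 genes. Where genes overlap, or have near-identical copies, the source of reads is uncertain, since strand use in counting was not stated.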

Additional observations from a re-analysis of the deposited data

Results flagged for a closer look

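In some genes the change with age in endothelial nuclei differed from the change in all other nuclei of the same mice, tested with limma on the difference itself. This held for 46 of the 2943 genes tested (1.56%). Among the genes named in the report the difference in log2 change was positive for Akap12 (2.35), Edn1 (2.33), Ucp2 (2.13), Rgs5 (2.12), Rhoc (2.05), Id3 (2.01), Fn1 (1.94), Actg1 (1.55), Pglyrp1 (1.48), Hspb1 (1.43) and Adgrf5 (1.17). It was negative for Pde1a (-1.86), March1 (-1.78), Tshz3 (-1.70), Fgf12 (-1.62), Epha5 (-1.55), Kcnb2 (-1.50), Fam19a1 (-1.20) and Dab1 (-1.18). In endothelial nuclei alone, the log2 fold changes of Fn1 (0.67) and Adgrf5 (0.50) with age did not pass. Against pericytes the change with age differed in 3 of 2542 genes (0.118%), with 2.0 for Rgs5, which was among the genes that chose the pericyte nuclei. The change with AAV-B3GNT3 differed in 1 gene of 2542 (0.0393%), Palmd.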

How the results depend on the processing

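The counts of genes that passed were the least stable values. With single libraries left out, they ran from 0 to 379 for ageing (76 in the report), from 0 to 189 for AAV-B3GNT3 (31) and from 0 to 2 for aged AAV-B3GNT3 against young (0). The differences from all other nuclei ran from 0 to 323 with age and from 0 to 227 with AAV-B3GNT3, and those from pericytes from 0 to 24 and from 0 to 12. Without the filter on low counts the 3 comparisons gave 167, 106 and 9 genes, and with only the 2 groups compared in the fit 0, 0 and 2. Without the upper limit on genes per nucleus, which let in 2 more nuclei, ageing gave 20, with 0 falls, and AAV-B3GNT3 gave 9. With at least 5 panel genes ageing gave 107, 40 of them lower (19 in the report), and AAV-B3GNT3 gave 19. With nuclei high in other-class RNA left out they gave 98 and 44. Genes of 30 kb or more alone, and counts with the estimated free RNA subtracted, gave 0 in ageing and AAV-B3GNT3, where fewer genes were tested (2724 and 2640). DESeq2 gave 51 and 35 genes, 42 and 21 of them also called by edgeR. For the difference from other nuclei with AAV-B3GNT3, a prior count of 5 gave 12 and a mean of at least 20 UMIs gave 28. For the difference from pericytes, the same settings gave 0 and 0 with AAV-B3GNT3, and the second gave 1 with age. The 55 results for named genes that passed kept their direction in all 1048 alternatives and passed in 549. Replicate numbers in the labels were shared between groups, with no pairing stated. Deviations from group means had correlations of -0.0355 to 0.154 between same-numbered libraries of different groups. Between different-numbered ones the correlations were -0.191 to 0.122. Whether a number stands for a shared step was not tested. With the replicate block, 75 genes passed with age and 23 with AAV-B3GNT3, 63 and 22 of them also without it, and 0 for aged AAV-B3GNT3 against young. Among the shares, which passed no test, signs turned as follows. The endothelial share against young (-0.0360 percentage points) ran from -0.107 to 0.0608 with single libraries left out, positive at 0.0184 when young AAV-EGFP replicate 1 was dropped and at 0.0608 when aged AAV-B3GNT3 replicate 3 was. The arterial-list share with AAV-B3GNT3 (2.26 points) became -5.45 with nuclei thinned to 1000 UMIs, -0.786 at 3 UMIs over the list, -9.46 without Arl15, and ran from -3.67 to 6.09 with single libraries left out, negative at -0.223 when aged AAV-EGFP replicate 2 was dropped and at -3.67 when aged AAV-B3GNT3 replicate 3 was. With age it (-8.17) became 7.72 without Arl15. The venous-list share with AAV-B3GNT3 (-4.38) ran from -9.19 to 0.646, the latter without aged AAV-EGFP replicate 1. B3gnt3 against young (-6.05 CPM) became 0.0556 over all barcodes and ran from -13.0 to 1.88 with single libraries left out, the latter without young AAV-EGFP replicate 1. The cause of these shifts was not tested. With 35 to 86 endothelial nuclei per library, 3260 of 31053 genes passed the filter on low counts, and 16598 were tested without it.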
